A study of Mus musculus with 3 samples.

Results

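The genes described here are the ligands and receptors of the vascular endothelial growth factor (VEGF) and angiopoietin systems. They are Vegfa, Angpt1 and Angpt2 on the ligand side and Kdr, Flt1, Nrp1, Tek, Tie1 and Ptprb on the receptor side, 9 of the 32285 genes listed in the count matrices, taken by symbol. Single cells from mouse glomeruli were sequenced in 3 libraries, 1 per group. The control library is labelled only as a blank control, and the strain of its mice is not named for this experiment. The model library came from MRL/lpr mice, a strain that carries the Fas lpr mutation and develops spontaneous lupus nephritis. The treated library came from MRL/lpr mice given 800000 hUC-MSCs, mesenchymal stem cells of human umbilical cord, per mouse and sampled on day 21. All mice were female, and the number of mice behind each library is not stated. Strain, age, disease and library therefore cannot be told apart between control and model, and treatment and library cannot be told apart between model and treated.

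In the glomerulus, VEGF-A is made by podocytes and crosses the filtration barrier to reach capillary endothelium. There it binds VEGF receptor 2, encoded by Kdr, which carries most of the mitogenic and survival signal, and VEGF receptor 1, encoded by Flt1, which binds the ligand tightly and largely acts as a trap. Neuropilin 1, encoded by Nrp1, is a co-receptor that also binds class 3 semaphorins. Angiopoietin 1 activates the endothelial receptor TIE2, encoded by Tek, and steadies vessels, whereas angiopoietin 2 acts as a context-dependent antagonist of the same receptor. Tie1 encodes TIE1, a partner of TIE2, and Ptprb encodes the vascular endothelial phosphatase VE-PTP, which removes phosphate from TIE2 and VEGF receptor 2.

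The 9 genes are protein-coding and lie on 6 chromosomes of GRCm38. Vegfa spans chr17:46016993-46032369, Angpt1 chr15:42424723-42676977, Angpt2 chr8:18690263-18741562 and Nrp1 chr8:128358604-128503363. Kdr spans chr5:75932827-75978458, Flt1 chr5:147561604-147726011, Tek chr4:94739289-94874976, Tie1 chr4:118471191-118490061 and Ptprb chr10:116275523-116389535. RefSeq promoter windows (250 bases before to 50 bases after the annotated start) were found for 6 of the 9 genes. Those of Kdr, Flt1, Tie1 and Tek are shown because these receptors carry the endothelial side of the comparisons. The capitals mark GGAAG or its reverse complement CTTCC, a string that holds the shorter GGAA core of sites for ETS factors. ETS factors are a family with known roles in endothelial genes, and GGAA outside this string is not marked.
Kdr promoter, chr5:75978406-75978705, - strand: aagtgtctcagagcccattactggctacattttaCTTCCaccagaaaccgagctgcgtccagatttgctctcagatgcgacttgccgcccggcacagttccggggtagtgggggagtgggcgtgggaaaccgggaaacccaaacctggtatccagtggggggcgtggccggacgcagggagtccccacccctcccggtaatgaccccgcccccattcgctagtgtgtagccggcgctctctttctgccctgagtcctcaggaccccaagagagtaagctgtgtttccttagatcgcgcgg
Flt1 promoter, chr5:147725962-147726261, - strand: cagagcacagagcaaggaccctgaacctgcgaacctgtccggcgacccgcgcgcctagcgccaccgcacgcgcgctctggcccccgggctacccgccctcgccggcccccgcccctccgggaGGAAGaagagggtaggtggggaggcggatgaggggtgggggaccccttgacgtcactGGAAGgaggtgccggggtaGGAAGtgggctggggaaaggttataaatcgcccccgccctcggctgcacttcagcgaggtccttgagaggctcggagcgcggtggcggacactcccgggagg
Tie1 promoter, chr4:118489800-118490099, - strand: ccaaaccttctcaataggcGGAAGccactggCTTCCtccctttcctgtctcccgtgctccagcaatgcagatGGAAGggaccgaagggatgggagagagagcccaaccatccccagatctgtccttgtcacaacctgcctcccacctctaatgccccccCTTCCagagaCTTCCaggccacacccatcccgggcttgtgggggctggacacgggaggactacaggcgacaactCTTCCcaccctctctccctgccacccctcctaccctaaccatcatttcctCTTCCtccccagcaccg
Tek promoter, chr4:94739039-94739338, + strand: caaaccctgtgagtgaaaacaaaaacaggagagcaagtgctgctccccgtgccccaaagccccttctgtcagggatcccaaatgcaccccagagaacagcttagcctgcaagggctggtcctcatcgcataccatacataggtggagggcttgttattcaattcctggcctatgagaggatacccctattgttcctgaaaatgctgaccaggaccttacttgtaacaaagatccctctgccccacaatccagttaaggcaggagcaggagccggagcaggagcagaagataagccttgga
The marked string occurred 7 times in the Tie1 window, 3 times in Flt1, 1 time in Kdr and 0 times in Tek. The Nrp1 window held it 4 times and the 2 Vegfa windows 1 and 2 times. It is a common string, present in 71.4% of the 32851 mouse promoter windows of the same length.

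The libraries held between 90812138 and 103319588 unique molecular identifiers (UMIs, each 1 captured RNA molecule). Barcodes with at least 1000 UMIs and at most 10% mitochondrial UMIs numbered 11018 in control, 14109 in model and 16586 in treated, and 10047, 12516 and 14385 cells remained after predicted doublets were removed. Median depth differed, at 4910 UMIs per cell in control, 3633.5 in model and 2724 in treated. Between 35 and 61 cell barcodes were shared by any pair of libraries, against 22.9 to 34.4 expected from random draws. Cells were clustered without the 9 genes and named from marker genes, so that class names rest on other genes. The endothelial-like class had 4462, 4095 and 4765 cells in control, model and treated, and 9 of its 10 markers were at least 2-fold above the remaining cells in each library. The podocyte-like class had 2362, 821 and 147 cells, with all 12 markers at least 2-fold above the rest. The mesangial-like class had 587, 470 and 11 cells and carried all 9 of its markers. Clusters 1 and 17, with 1942 cells in the treated library, carried 8 of the 9 mesangial markers but were led by Col12a1, Aldh1a2, Cdh11, Cxcl9 and Col3a1 and stayed unnamed. They are given by number. Levels are in CPM, the counts-per-million scale, here the UMIs of a gene scaled to the total UMIs of its class in that library. With 1 library per group there is no test, and the 95% intervals are exact and cover counting error only, since mice were not resolved.

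Vegfa had its highest level in podocyte-like cells in every library, and that level was higher in both MRL/lpr libraries. In podocyte-like cells it reached 538.5 CPM in control (95% interval 527.3 to 549.8), 1096 (1070 to 1122) in model and 1160 (1098 to 1225) in treated. The model level was 2.03 times the control level (1.97 to 2.10), and the treated level was 1.06 times the model level (0.997 to 1.12). The control library thus stood below the other 2, whose intervals overlap. Among all genes measurable in podocyte-like cells, 14.2% passed the same rule between model and control, a ratio of at least 2 in either direction with an interval that excludes 1. Between treated and model the share was 4.96%. The log2 ratio of model to control was 1.02, and it fell just short of 2-fold with predicted doublets kept (0.95) and with classes taken from the marker score of each cell (0.98).

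Different clusters supplied the podocyte-like cells. Cluster 4, led by Nphs1, held 2248 of the control cells, while cluster 5, led by Adm, held 764 of the model and 121 of the treated cells. Adm encodes adrenomedullin, a vasodilator peptide, and its own level in podocyte-like cells was 255.3, 1263 and 1005 CPM in control, model and treated. The difference in Vegfa was present inside each cluster. Within cluster 4 the level was 545.2 in control and 1467 in the 57 model cells, a ratio of 2.69 (2.46 to 2.94). Within cluster 5 it was 352.5 in the 114 control cells, 1073 in model and 1071 in treated, with ratios of 3.04 for model over control and 0.998 for treated over model.

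Single cells also showed control below model and treated. The median podocyte-like cell carried 3 Vegfa UMIs in control, 7 in model and 7 in treated, at median depths of 6667.5, 7204 and 6874 UMIs. After each cell was thinned to 1000 UMIs, 41.7% of control podocyte-like cells kept a Vegfa UMI (39.7 to 43.7), against 64.2% in model (60.8 to 67.5) and 63.9% in treated (55.6 to 71.7). Before thinning the shares were 91.9%, 98.1% and 97.3%. In T- and NK-like cells, which should lack podocyte transcripts, the thinned shares were 0.606%, 3.90% and 0.741%, at median depths of 2689, 1845.5 and 1725 UMIs.

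**Figure D1:**
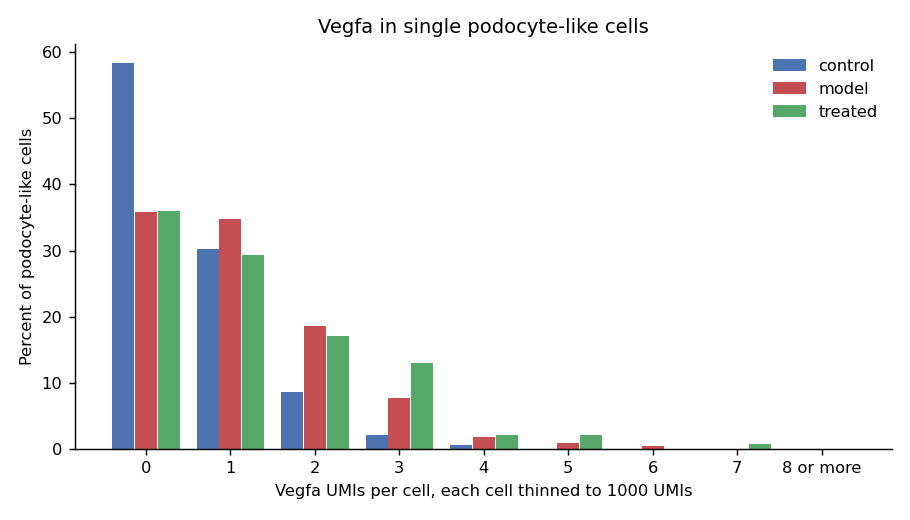
Percent of podocyte-like cells (y axis) by number of Vegfa UMIs left after thinning each cell to 1000 UMIs (x axis), for 2362 control, 821 model and 147 treated cells. The control cells had 0 UMIs in 58.3% of cases, against 35.8% in model and 36.0% in treated.

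Podocyte-like cells supplied a smaller share of the Vegfa UMIs in the libraries that held fewer of them. Podocyte-like cells were 23.5% of control, 6.56% of model and 1.02% of treated cells, and they supplied 83.4%, 64.6% and 34.6% of all Vegfa UMIs. Endothelial-like cells, whose Vegfa level was far lower, supplied 12%, 16.9% and 39.8%, more than podocyte-like cells in treated. Proximal-tubule-like cells supplied 0.274%, 8.27% and 2.18%, and were 0.647%, 11.9% and 1.61% of the cells. Across all cells Vegfa stood at 162.6 CPM in control, 169.3 in model and 65.6 in treated. Fewer podocytes in the tissue and fewer podocytes recovered by dissociation cannot be told apart here. The treated share rests on 147 cells.

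Tubular cells carried Vegfa below the podocyte level. Thick-limb-like cells had 178.6 CPM in model and 94.7 in treated, and collecting-duct-like cells had 59.8, 124.3 and 94.2 in control, model and treated. Droplets with 1 to 100 UMIs, which hold free RNA rather than cells and are called empty droplets here, had 187.7, 264.1 and 124.2, so that all these tubular levels lay below free RNA.

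Endothelial-like cells also yielded Vegfa UMIs, at 51.5 in control, 88.8 in model and 76.5 in treated. These levels were 0.274, 0.336 and 0.616 of those in empty droplets, and the median of the 12 podocyte markers in the same cells was 0.0360, 0.108 and 0.0769 of empty droplets. In the endothelial-like cells that held no UMI of any podocyte marker, Vegfa was at 45.3 (34.1 to 59.0, 302 cells) in control, 84.0 (61.7 to 111.7, 206 cells) in model and 63.4 (50.8 to 78.2, 605 cells) in treated. These cells were shallower than the class, at median depths of 3843.5, 2612 and 1976 UMIs against 4527, 3773 and 3067. The ratio of model to control in all endothelial-like cells was 1.72 (1.60 to 1.86), short of 2. Within single clusters it was 2.50 (2.00 to 3.11) in cluster 6, 3.15 (1.59 to 7.31) in cluster 8, 2.42 (1.43 to 4.45) in cluster 10 and 2.53 (0.898 to 9.81) in cluster 11, but 0.688 (0.437 to 1.12) in cluster 9, with only 4 to 26 control UMIs outside cluster 6. The part of free RNA in endothelial Vegfa was not tested.

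Angpt1 was not a podocyte transcript in these libraries. Podocyte-like cells held 5 Angpt1 UMIs in control, 9 in model and 0 in treated, or 0.305 and 1.47 CPM in control and model, with a treated interval of 0 to 3.29. This goes against the expectation of a podocyte source. Among classes of at least 40 cells the highest levels were in collecting-duct-like cells, at 28.5 (20.3 to 38.8), 69.3 (54.3 to 87.1) and 48.9 (32.5 to 70.6) in control, model and treated. Proximal-tubule-like cells followed at 27.3 (15.6 to 44.3), 40.1 (35.1 to 45.5) and 36.0 (25.6 to 49.2). Both classes exceeded empty droplets, 4.07 to 7.13 times and 3.87 to 4.12 times. The proximal-tubule-like interval overlaps the collecting-duct-like interval in control and in treated.

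Endothelial-like cells carried Angpt1 at 12.2 (10.9 to 13.7), 8.87 (7.61 to 10.3) and 7.45 (6.29 to 8.77), which is 1.75, 0.913 and 0.803 of empty droplets. They supplied 60.4%, 27.3% and 23.0% of the Angpt1 UMIs of control, model and treated, and were 44.4%, 32.7% and 33.1% of the cells. In model, proximal-tubule-like cells supplied more, at 36.4%. They were 11.9% of the model cells, against 0.647% of control and 1.61% of treated cells. The ratio of model to control in endothelial-like cells was 0.727 (0.600 to 0.878). All these levels are low, since 1.30% or fewer of the endothelial-like cells kept an Angpt1 UMI after thinning.

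Angpt1 was also compared between the mesangial-like cells of control and model, beside the unnamed clusters 1 and 17 of treated. It stood at 2.94 (2.05 to 4.09) in the control mesangial-like cells and at 7.33 (5.31 to 9.88) in model, a ratio of 2.49 (1.56 to 4.01), where 14.9% of all genes passed the rule. In the treated library, clusters 1 and 17 carried 23.3 (20.3 to 26.6) and 28.9 (23.4 to 35.3). They held 48.7% of all Angpt1 UMIs of that library. The control and model levels were 0.421 and 0.755 of empty droplets, and of these groups only the treated clusters exceeded them, at 2.51 and 3.11 times their level. When clusters 1 and 17 were joined with the mesangial-like class in all libraries, a grouping chosen after the values were seen, Angpt1 rose 3.26-fold from model to treated (log2 interval 1.27 to 2.16), where 8.54% of genes passed. From control to model the joined cells gave a ratio of 2.53, where 16.2% passed. In the same joined cells 4 of the 9 genes passed between treated and model, with Kdr, Flt1 and Tie1 lower at ratios of 0.444, 0.459 and 0.497. Kdr, Flt1 and Tie1 lay below empty droplets in both libraries. The endothelial markers had medians of 0.208 and 0.488 of empty droplets in control and model mesangial-like cells. In clusters 1 and 17 they had 0.788 in model and 0.234 in treated. Between model and control 7 of the 9 passed, all as higher, with Angpt2 and Nrp1 the exceptions at 1.29 and 0.593. Of these 7 only Tek exceeded empty droplets in model, at 260.0 against 174.9. Kdr, Flt1, Tie1 and Ptprb were at 197.3, 138.6, 24.8 and 103.3, against 333.5, 179.8, 68.0 and 151.7 in empty droplets. Vegfa and Angpt1 lay below empty droplets too. The part of free RNA in the joined ratios was not tested. Of the joined cells, the mesangial-like cluster held 587 in control and 470 in model but 11 in treated. Clusters 1 and 17 held 49, 140 and 1942. They gave 8 Angpt1 UMIs in model and 310 in treated. Aldh1a2, a leading gene of clusters 1 and 17, was at 8.33, 85.1 and 310.5 in the control and model mesangial-like cells and in the treated clusters.

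Angpt2 was highest in mesangial-like and smooth-muscle-like cells and, in treated, in clusters 1 and 17. It reached 183.0 (175.4 to 190.8) in control and 251.7 (239.0 to 264.9) in model mesangial-like cells, a ratio of 1.38 (1.29 to 1.47). The treated clusters 1 and 17 carried 228.9 (219.2 to 238.9) and 176.3 (162.3 to 191.1), between or near the values of the mesangial-like class, a different group. Within clusters 1 and 17 together, treated was higher than model, at 214.9 against 123.0 on 111 model UMIs. In the joined cells the ratio of treated to model was 0.921. Smooth-muscle-like cells, 1 cluster led by Tagln and Acta2 that also carried mesangial markers, had 163.0 (145.8 to 181.7), 186.7 (174.3 to 199.8) and 181.7 (155.6 to 211.0). The intervals of model and treated overlap there. In this cluster mesangial markers had medians of 5.82, 5.40 and 3.51 times empty droplets in control, model and treated. Its smooth muscle markers had 4.64, 7.22 and 20.7 times, so a mesangial part of its Angpt2 cannot be told apart. Angpt2 exceeded empty droplets 7.14 and 5.67 times in mesangial-like cells. Of all Angpt2 UMIs, 80.8% in control and 52.9% in model came from the mesangial-like class, and 78.2% in treated from clusters 1 and 17.

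Endothelial-like cells, which store angiopoietin 2 in some vascular beds, carried little of its transcript here. The levels were 4.06 (3.30 to 4.93), 5.73 (4.72 to 6.89) and 11.1 (9.70 to 12.7). They were 0.158, 0.129 and 0.213 of empty droplets, and the ratio of treated to model was 1.94 (1.54 to 2.46), just short of 2. Empty droplets held more Angpt2 in model and treated as well, at 44.4 and 52.2 against 25.6 in control.

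**Figure D2:**
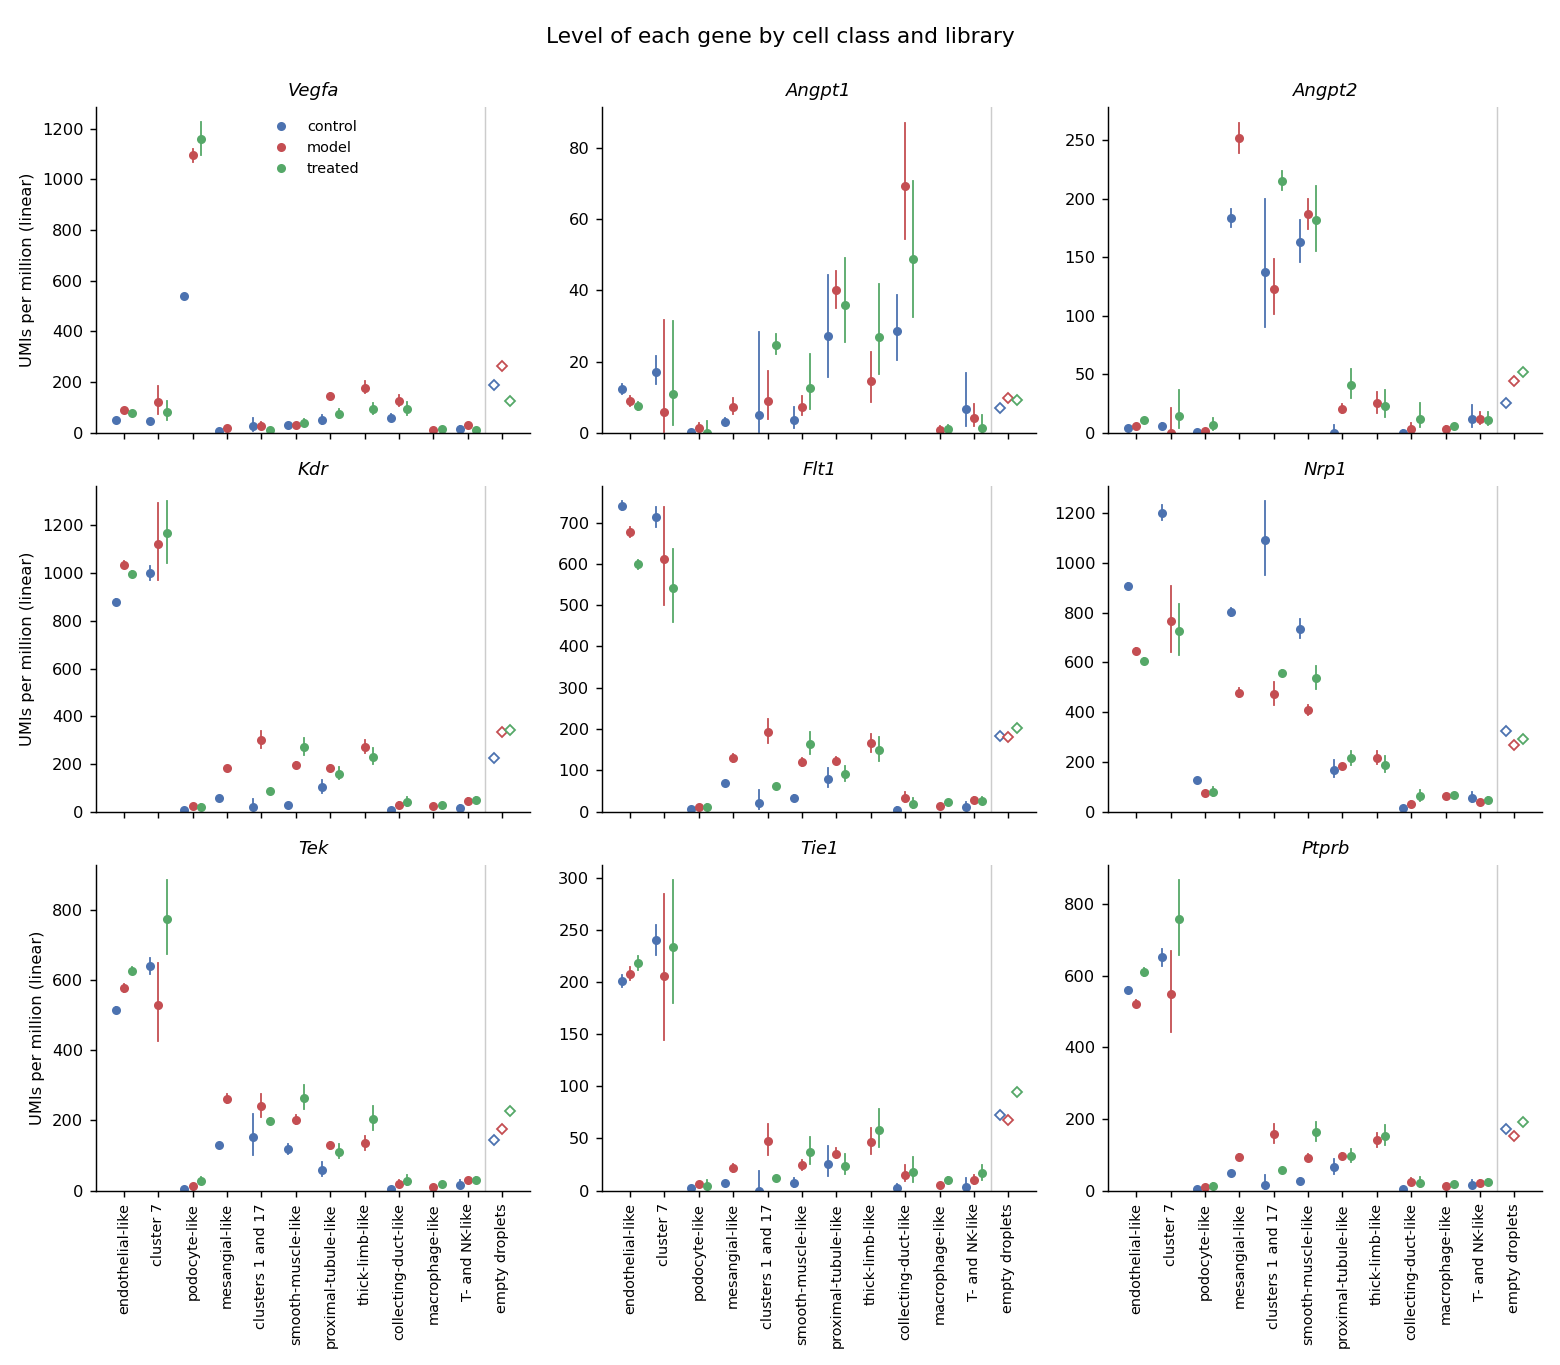
Level of each gene in CPM (y axes, linear, each from 0) by cell class (x axis) in the control, model and treated libraries, with exact 95% intervals for counting error, for classes of at least 40 cells. Open diamonds give the level in empty droplets. Vegfa peaks in podocyte-like cells, Angpt2 in mesangial-like and smooth-muscle-like cells, and 5 receptor genes in the endothelial-like class and cluster 7.

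The receptors Kdr, Flt1, Tek, Tie1 and Ptprb were endothelial. The endothelial-like class supplied between 72% and 83.9% of the UMIs of each of these genes in each library. In control, cluster 7, which carried endothelial markers together with haemoglobin RNA and stayed unnamed, supplied another 14.4% to 17.7%. That cluster held 1260 control, 48 model and 98 treated cells and is outside the endothelial-like levels and ratios below. Of its 4592716 control UMIs, 4591 were Kdr, 5518 Nrp1 and 2944 Tek.

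None of the 9 genes passed the rule in endothelial-like cells in either comparison, though Angpt2 did under some alternatives. Its log2 ratio of treated to model was then 1.08 with 200 to 3000 genes per cell, 1.01 with classes from marker scores and 3.06 with free RNA subtracted, and that of model to control was -1.79 with free RNA subtracted. Among all genes tested there, 15.7% passed between model and control and 9.7% between treated and model. Kdr was at 880.1 (868.4 to 891.9) in control, 1036 (1022 to 1050) in model and 995.9 (982.0 to 1010) in treated. The control level was the lowest, and the model level was 1.18 times as high (1.15 to 1.20). Flt1, the decoy receptor, ran the other way, at 740.4, 677.6 and 598.9, with ratios of 0.915 (0.895 to 0.936) and 0.884 (0.862 to 0.906). Within clusters 8 and 10, which held most model cells, its model to control ratio was above 1, at 1.32 (1.13 to 1.56) and 1.22 (1.05 to 1.41), and in clusters 6, 9 and 11 the interval included 1. Counts per gene do not separate its soluble form from its membrane form, nor the isoforms of Vegfa.

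Over the whole endothelial-like class, Nrp1 gave the largest difference among the receptors between model and control. This ranking did not hold in clusters 8 and 10, with ratios of 0.923 and 0.886 for Nrp1 and 1.36 and 1.50 for Kdr. In clusters 6, 9 and 11 the ratios were 0.740, 0.657 and 0.770 for Nrp1 and 1.35, 1.41 and 1.29 for Kdr. Over the class Nrp1 was at 907.4 (895.5 to 919.3) in control, 646.2 (635.1 to 657.6) in model and 605.7 (594.8 to 616.7) in treated. Control was highest, and the ratio of model to control was 0.712 (0.697 to 0.728). After thinning, 58.6% of control endothelial-like cells kept an Nrp1 UMI, against 46.7% in model and 43.5% in treated, and 3.03%, 3.48% and 4.89% of T- and NK-like cells did.

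The TIE genes differed little. Tek was at 514.8 (505.9 to 523.9), 578.0 (567.4 to 588.7) and 628.3 (617.2 to 639.5), lowest in control, with ratios of 1.12 (1.09 to 1.15) and 1.09 (1.06 to 1.12). Tie1 was at 201.0 (195.4 to 206.6), 207.8 (201.5 to 214.2) and 217.9 (211.4 to 224.6), with neighbouring intervals that overlap. Ptprb, the phosphatase, was at 560.6, 522.3 and 610.6, lowest in model, with ratios of 0.932 (0.908 to 0.956) and 1.17 (1.14 to 1.20).

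The endothelial-like cells of each library came mostly from clusters of their own. Cluster 6, led by Cyp26b1 and Ifit1, held 4215 control cells. Clusters 8 and 10, led by Calca and Lrg1, held 1265 and 2241 model cells, and clusters 9 and 11, led by Sele and Gm30382, held 1759 and 2400 treated cells. In the 5 clusters, the model value of Kdr was 1.29 to 1.50 times the control value, and the Nrp1 ratio ran from 0.657 to 0.923. For Nrp1 the interval reached 1 in clusters 8 and 10. Flt1 and Tek were less even across clusters, with model to control ratios of 0.933 to 1.32 for Flt1 and 0.859 to 1.68 for Tek.

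**Figure D3:**
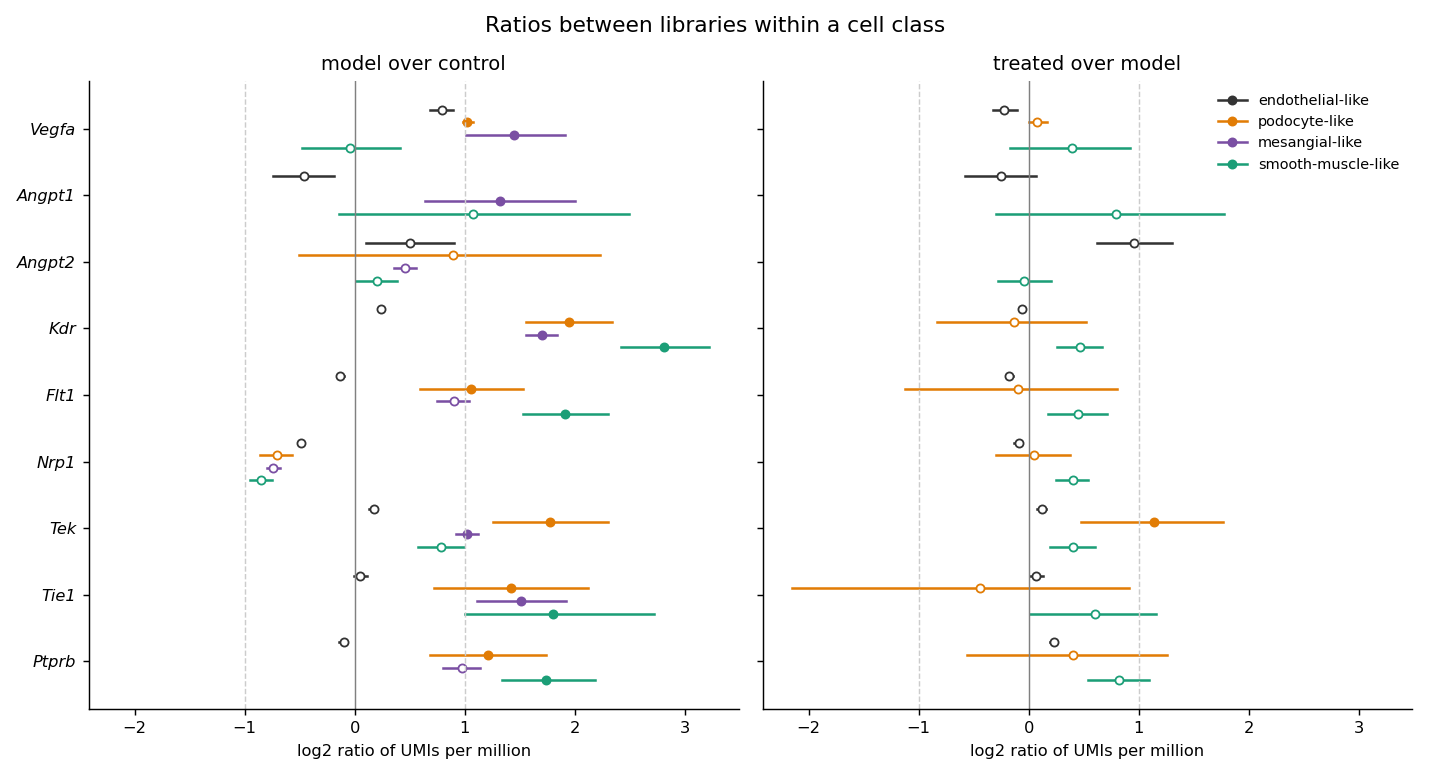
log2 ratio of CPM (x axis) of each gene (y axis) between model and control (left) and treated and model (right) in 4 cell classes, with exact 95% intervals for counting error. Filled points passed the rule of at least 2-fold (dashed lines) with an interval that excludes 0. No endothelial-like point is filled, and Nrp1 lies below 0 in all 4 classes on the left.

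Nrp1 was not confined to endothelium. Mesangial-like cells had 800.5 (784.5 to 816.8) in control and 478.7 (461.1 to 496.7) in model, a ratio of 0.598 (0.573 to 0.624). Smooth-muscle-like cells had 734.5, 407.8 and 537.8. In the treated clusters 1 and 17 it was 552.6 and 569.4. Podocyte-like cells had 126.0 (120.7 to 131.6), 76.8 (70.0 to 84.1) and 79.3 (63.7 to 97.6). The model to control ratio was below 1 in the endothelial-like, podocyte-like, mesangial-like and smooth-muscle-like classes and did not reach 2-fold in any of them. Nrp1 was also lower in the empty droplets of model than of control, at 268.3 against 324.4.

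Tek appeared outside endothelium as well. Mesangial-like cells carried it at 129.6 (123.2 to 136.2) in control and 262.8 (249.8 to 276.2) in model, a ratio of 2.03 (1.89 to 2.18), and clusters 1 and 17 at 183.9 (175.2 to 192.8) and 236.4 (220.2 to 253.5) in treated. The log2 ratio of model to control in mesangial-like cells ran from 0.41 to 2.00 with other limits on genes and mitochondrial UMIs. The endothelial markers in these cells had medians of 0.208 and 0.488 of empty droplets in control and model, and their part in the Tek ratio was not tested. Tek was also counted for each Kdr UMI of the same class. Endothelial-like cells had 0.585, 0.558 and 0.631 Tek UMIs for each Kdr UMI in control, model and treated, and empty droplets had 0.635, 0.524 and 0.658. Mesangial-like cells had 2.32 (2.12 to 2.54) in control and 1.45 (1.34 to 1.57) in model, and clusters 1 and 17 together had 2.33 (2.17 to 2.51) in treated but 0.804 (0.670 to 0.965) in model. Smooth-muscle-like cells had 4.20 (3.12 to 5.72) in control, on few Kdr UMIs, but 1.03 (0.936 to 1.13) in model and 0.977 (0.817 to 1.17) in treated. Podocyte-like cells had 0.611 (0.433 to 0.855) in control and 0.540 (0.401 to 0.722) in model, near the endothelial proportion, and 1.30 (0.733 to 2.35) in treated, above it. In the treated cluster 1, Kdr was at 34.6, or 0.101 of empty droplets, while Tek was at 0.812 of empty droplets. Cluster 17 differed, with Kdr at 224.1, or 0.651 of empty droplets, and Tek at 1.04 times their level. Cells with no UMI of the endothelial markers or of Kdr, Flt1, Tie1 and Ptprb were few, 1 of 587 in control and 1 of 470 in model among mesangial-like cells. In smooth-muscle-like cells of this kind Tek was at 42.4 (8.74 to 123.9, 25 cells) in control and 73.8 (20.1 to 188.9, 26 cells) in model, against 117.5 and 201.6 over the whole class. It was at 101.5 (20.9 to 296.7, 14 cells) in the treated clusters 1 and 17 and at 1.64 (0.0416 to 9.15, 126 cells) in control podocyte-like cells. How much of the Tek outside endothelium is free RNA was not tested.

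**Figure D4:**
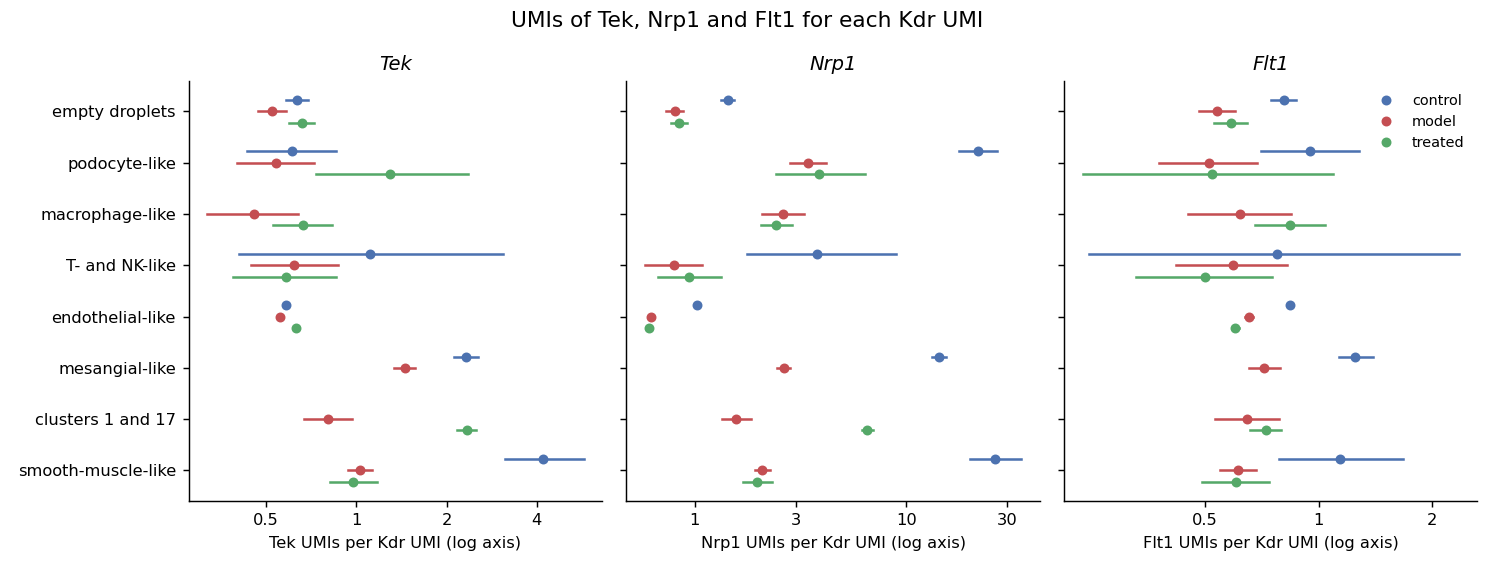
UMIs of Tek, Nrp1 and Flt1 for each Kdr UMI (x axes, log scale) by cell class (y axis) in the 3 libraries, with exact 95% intervals, for groups of at least 50 cells and for empty droplets. Tek lies near the empty-droplet value in endothelial-like cells and in podocyte-like cells of control and model, and to the right of it in mesangial-like cells of control and model. Nrp1 lies to the right in podocyte-like cells too.

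Kdr, Flt1, Tie1 and Ptprb were low in podocyte-like, mesangial-like and smooth-muscle-like cells of control and model, below their level in empty droplets. In podocyte-like cells Kdr, Flt1, Tek, Tie1 and Ptprb passed the rule between model and control, with ratios of 3.86, 2.08, 3.42, 2.68 and 2.32. With Vegfa this made 6 of the 8 genes tested, where 14.2% of all genes passed. Within single clusters the interval included 1 for Flt1, Tek and Ptprb in both clusters 4 and 5 and for Tie1 in cluster 5, and Kdr alone kept an interval above 1 in both, at 2.91 (1.04 to 6.57) and 4.34 (1.45 to 21.3). The receptor levels were 0.0239 to 0.0889 of empty droplets in control and model, next to medians of 0.0261 and 0.0562 for the 10 endothelial markers, of which Cldn5 alone was above empty droplets. With free RNA subtracted, an alternative given below, 9 of the 16 ratios that had passed in any class could be formed. The rest had too few UMIs left. The part of free RNA in the podocyte-like ratios was not otherwise tested. With predicted doublets kept the log2 ratios of Flt1 and Ptprb became -0.03 and -0.15. Between treated and model Tek passed with a ratio of 2.21, on 30 treated UMIs and at 0.118 of empty droplets. In mesangial-like cells 5 of the 9 genes passed, all as higher, where 14.9% of all genes did, namely Angpt1 and Tek as above, Vegfa, Kdr and Tie1. Kdr and Tie1 passed with ratios of 3.25 and 2.85 at 0.544 and 0.313 of empty droplets in model, where the endothelial markers had a median of 0.488. Vegfa passed with a ratio of 2.74 at 0.0646 of empty droplets. In smooth-muscle-like cells Kdr, Flt1, Tie1 and Ptprb passed between model and control, where 14.7% of all genes did, and none between treated and model, where 7.44% did. Their model levels were 0.359 to 0.667 of empty droplets, and the endothelial markers in the same cells went from a median of 0.146 of empty droplets in control to 0.493 in model. The part of free RNA was not tested.

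Macrophage-like cells carried Nrp1 too. Their level was 62.6 in model and 68.5 in treated, with 2.61 (2.09 to 3.28) and 2.43 (2.05 to 2.88) Nrp1 UMIs for each Kdr UMI, against 0.804 and 0.845 in empty droplets and 0.624 and 0.608 in endothelial-like cells. These levels lay below the 268.3 and 290.7 of empty droplets, and the part of free RNA was not tested. In macrophage-like cells with no UMI of the endothelial markers or of Kdr, Flt1, Tie1 and Ptprb it was 47.4 (32.4 to 66.9, 132 cells) and 46.1 (35.9 to 58.3, 386 cells).

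The other ligands of the family were read from the pathway lists, 31 genes in all. Vegfc and Vegfd, ligands of VEGF receptor 3, were read in the mesangial-like class. Vegfc was at 92.8 and 215.7 in control and model mesangial-like cells, a ratio of 2.32 (2.14 to 2.52), and at 264.8 in the treated clusters 1 and 17. Vegfd was at 157.7, 264.3 and 378.8 in the same groups, with a model to control ratio of 1.68 (1.57 to 1.79). Pgf, placental growth factor, fell in mesangial-like cells from 16.3 to 6.99. Angpt4, the mouse counterpart of angiopoietin 4, rose from 0.673 to 5.80 on 8 and 34 UMIs. Flt4, which encodes VEGF receptor 3, and Plxnd1, Sema3f, Sema3g, Rcan1 and Egr3 also passed as higher. Of these, Plxnd1 was above empty droplets in model, at 96.9 against 53.1, while Flt4 was at 5.97 against 14.9, and the other 4 were below empty droplets too. Of 25 pathway genes tested in mesangial-like cells, 8 were higher and 1 lower, where 14.9% of all genes passed, with a median log2 ratio of 0.49 against 0.01 over all genes.

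In podocyte-like cells Sema3g, a secreted semaphorin that binds neuropilins, showed nearly the ratio of Vegfa. It was at 625.3 in control, 1311 in model and 1435 in treated, and its model to control ratio was 2.10 (log2 interval 1.03 to 1.11). Svep1, which encodes a large matrix protein that binds TIE1, was at 5.92, 26.8 and 57.0 and passed the rule in both comparisons. Nr4a1, an immediate-early nuclear receptor, rose from 67.4 to 407.9, and Epas1, which encodes HIF-2 alpha, rose from 11.1 to 29.1. Plxnd1, a semaphorin receptor, fell from 10.3 to 4.41, and Vegfd and Sema3f passed as higher at 3.10 and 19.3. Of these genes Sema3g, Svep1 and Nr4a1 exceeded empty droplets in model, which held 197.1, 4.86 and 365.8, while Epas1, Plxnd1, Vegfd and Sema3f did not, at 337.7, 53.1, 43.0 and 86.8 in those droplets. Across the lists 6 of 19 genes tested were higher and 1 lower, where 14.2% of all genes passed in either direction, and none of the other hypoxia regulators, Hif1a, Arnt, Vhl, Egln1 and Egln3, passed. Between treated and model Nrp2, Svep1 and Plcg1 passed as higher, on 13 to 64 treated UMIs, of 18 genes tested, where 4.96% of all genes passed. Nrp2 and Plcg1 were at 12.5 and 11.6 in treated, below the 79.1 and 32.0 of empty droplets.

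In endothelial-like cells 5 of 26 pathway genes passed between model and control, where 15.7% of all genes did. Plxnd1 rose from 31.7 to 89.5 and Sema3f from 111.3 to 236.1, while Vegfd, Sema3c and Apln passed at levels under 5, each below empty droplets in model. Genes known to be induced by VEGF in endothelium gave 0 higher and 1 lower of 6. Between treated and model the same list gave 1 higher and 3 lower of 6, where 9.7% of all genes passed in either direction, with a median log2 ratio of -0.74 against 0.13 over all genes. Dll4, a Notch ligand of tip cells, fell from 81.8 to 37.3, Nr4a1 from 297.3 to 125.5 and Egr3 from 23.3 to 4.08. Apln, which encodes apelin, rose from 0.811 to 4.90. Esm1 and Rcan1, 2 other targets, did not pass, at 5.42 and 6.58 for Esm1 and 95.3 and 74.5 for Rcan1 in model and treated. Egln3, an oxygen sensor that is itself induced by hypoxia, rose from 7.20 to 27.7, the other gene that passed among 27 tested. Nr4a1 and Egr3 are also immediate-early genes of many cell types, and Nr4a1 fell from 927.3 to 330.7 in smooth-muscle-like cells as well. The fall was not confined to endothelium. In the joined mesangial-like cells Dll4, Egr3 and Nr4a1 passed as lower between treated and model, at ratios of 0.255, 0.355 and 0.25. There 8.54% of all genes passed, and Rcan1 and Esm1 did not. The lists were chosen with earlier results known, and their counts are descriptions.

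Levels across 35 pairs of class and library, each with at least 50 cells, were used to find the genes most like each of the 9 among 14230. Pearson correlations of log2(CPM + 1) are given as descriptions, since pairs from 1 library share free RNA and depth. Kdr was closest to Cyyr1 (0.992), Flt1 (0.988) and Cdh5 (0.986). Flt1 was closest to Ptprb (0.988), Kdr (0.988) and Emcn (0.982). Ptprb was closest to Emcn (0.991), Flt1 (0.988) and Kdr (0.986). Tek was closest to Ldb2 (0.983), Hecw2 (0.981) and Slc43a3 (0.977). Tie1 was closest to Cd300lg (0.975), Ramp2 (0.973) and Ly6c1 (0.969). Nrp1 was closest to Tmem204 (0.958), Dlc1 (0.955) and Rasal2 (0.951). Among ligands, Angpt2 was closest to Adamts5 (0.982), Gja5 (0.978) and Lhfp (0.971). Vegfa was closest to Schip1 (0.896), Sybu (0.863) and Prr15 (0.863). Angpt1 was closest to Hoxb7 (0.875), Magi1 (0.870) and Hoxb8 (0.864).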

How the data were processed

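Glomerular cells were sequenced on the 10x platform in 3 libraries. The authors deposited UMI counts per gene and barcode, made with Cell Ranger and STAR on mm10 per the labels, with no normalization, and all barcodes were included. Depth per library is given in the text. No sample columns were left unmapped.

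Barcodes with at least 1000 UMIs and at most 10% mitochondrial UMIs were kept, and doublets predicted per library by Scrublet's method at an assumed rate of 0.8% per 1000 barcodes were removed. Cells were scaled to 10000 UMIs, log-transformed and clustered with scanpy 1.11.5 (2000 variable genes without the 9 genes and the pathway lists, 10 components, 15 neighbours, Leiden resolution 1.0) in Python 3.11.15. Clusters were named from marker lists. UMIs were summed per class and library. A gene was tested where the compared libraries together gave 20 UMIs or more, and it passed at 2-fold or more with a 95% interval that excluded 1. Levels carry exact Poisson intervals, ratios exact conditional binomial intervals and shares exact binomial intervals. The ratio procedure was tested on simulated data drawn with counting error only, which is what the intervals assume. That test cannot cover differences between mice or libraries. Empty droplets are barcodes with 1 to 100 UMIs.

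The genes and lists were chosen with earlier results of these data known. The text names the 9 genes, pathway genes that passed in the endothelial, podocyte or mesangial classes, markers, leading genes of clusters, and the 3 genes most like each of the 9, while Esm1 and the hypoxia regulators that did not pass were named after their values were seen. Alternatives changed the limits on UMIs, genes, mitochondrial and ribosomal UMIs, the doublets, the clustering, the naming, the free RNA and the scaling. The 2 comparisons share the model library.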

Additional observations from a re-analysis of the deposited data

Results flagged for a closer look

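Plxnd1, which encodes the semaphorin receptor plexin D1, moved in opposite directions between classes from control to model. Its log2 ratio was 1.50 in the endothelial-like class, 1.07 among mesangial-like cells and 1.03 in smooth muscle, against -1.22 in podocyte-like cells. The podocyte-like level was low and lay below that of empty droplets in model, as given above. The difference between the classes was not tested, since each group is 1 library.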

How the results depend on the processing

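No paired analysis was possible because each group holds 1 library and no result comes from a test. Of 501 log2 ratios recomputed under alternatives, 457 kept their sign and 139 moved outside their counting interval, as did 183 of 244 UMI shares. Vegfa in podocyte-like cells, at 1.02 between model and control, was 1.1 when centred on the median of all genes, 0.95 with doublets kept and 1.08 with free RNA subtracted. Kdr in endothelial-like cells, at 0.24, was 0.20 with at least 500 UMIs and with the 9 genes among the variable genes, 0.18 centred, 0.19 with doublets kept, 0.31 with free RNA subtracted and 0.21 at a mitochondrial limit of 5%. Nrp1 there, at -0.49, was -0.46 with 200 to 3000 genes, -0.58 with at least 500 UMIs, -0.55 centred, -0.57 with doublets kept and with the 9 genes among the variable genes, -0.42 with free RNA subtracted, -0.56 with marker scores per cell and -0.54 at the 5% limit. Angpt2 in mesangial-like cells, at 0.46, was 0.31 with 200 to 3000 genes, 0.35 at Leiden resolution 2.0, 0.27 with marker scores per cell and 0.15 at the 5% limit. The number of the 9 genes past the rule in endothelial-like cells went from 0 to 1 with free RNA subtracted in both comparisons, and from 0 to 1 between treated and model with 200 to 3000 genes and with marker scores per cell, the gene being Angpt2. With doublets kept, podocyte-like Flt1 and Ptprb reversed to -0.03 and -0.15. The causes were not tested. Limiting ribosomal UMIs to 5% left too few cells for any ratio, and a minimum of 2000 UMIs gave none in mesangial-like or smooth-muscle-like cells. With free RNA subtracted 46 ratios could be formed, against 60 when only centred. Of the ratios that had passed, 9 could be formed after subtraction and kept their sign, against 16 when centred. Only 42 ratios could be formed with doublets kept or with the 9 genes among the variable genes, and 41 with 200 to 3000 genes. Joining clusters 1 and 17 to the mesangial-like class was chosen after seeing the data.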
